A study of Mus musculus with 18 samples.

Results

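The genes described here are 31 genes of cholesterol and fatty acid synthesis, picked by name from the 24514 genes of the deposited count table and followed across all 6 groups of the study. Of them, 18 encode enzymes of the sterol pathway (Hmgcs1, Mvk, Pmvk, Mvd, Idi1, Fdps, Fdft1, Sqle, Lss, Cyp51, Tm7sf2, Msmo1, Nsdhl, Hsd17b7, Ebp, Sc5d, Dhcr7 and Acat2), 5 belong to its control (Insig1, Srebf1, Srebf2, Scap and Stard4) and 8 make or modify fatty acids (Fasn, Acaca, Acly, Scd1, Scd2, Elovl6, Fads1 and Fads2). All 31 passed the filter on low counts, with 13802 genes of the table, so that none was lost to it. RNA was sequenced from the mouse embryonic fibroblast line iMGT-Myh6-eGFP-MEF. Every group of the study carries the same transgenes, namely Mef2c, Gata4 and Tbx5 (together MGT) switched on by doxycycline, and an eGFP reporter named after the cardiac gene Myh6. Cells were transfected with siChst7, which targets Chst7, or with siControl, and were harvested the next day without doxycycline (day 0), or 1 and 3 days after doxycycline at 1 µg/mL. Each of the 6 groups had 3 biological replicates, each pooled from 40 wells of 384-well plates seeded at 1000 cells per well, so that 18 libraries were made from 1 cell line. No cells without doxycycline were followed to days 1 and 3, so factor expression, time in culture and time since transfection cannot be told apart in the changes between days. Chst7 codes for a sulfotransferase of the Golgi, which sulfates chondroitin and related sugar chains.

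Cells build cholesterol from acetyl-CoA through mevalonate, isoprenoid units, squalene and lanosterol, and build fatty acids from the same acetyl-CoA through malonyl-CoA. When sterol in the endoplasmic reticulum is scarce, Scap carries the membrane-bound transcription factors SREBP1 and SREBP2 (encoded by Srebf1 and Srebf2) to the Golgi, where proteases release their active part, which switches on genes of both pathways; when sterol is plentiful, Insig proteins hold Scap back. Many of these genes therefore tend to move together, and Insig1 and Srebf2 are themselves SREBP targets. Fibroblasts in serum-containing medium, as used here, can take up cholesterol from lipoproteins as well as make it.

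The 300 bases around the transcription start (250 before and 50 after) are given here for 5 genes on which the results turn: Hmgcs1, Mvd and Insig1, which differed between the siRNAs in opposite directions at days 0 and 3, and Idi1 and Cyp51, which rose most on day 1. Sequences are RefSeq's for GRCm38.p6, the assembly that mm10 names, given 5′ to 3′ on the gene's own strand. They lie at chr13:119690101-119690400 on the plus strand for Hmgcs1, chr8:122443373-122443672 on the minus strand for Mvd, chr13:8885356-8885655 on the plus strand for Idi1, chr5:4104648-4104947 on the minus strand for Cyp51 and chr5:28071162-28071461 on the plus strand for Insig1. Capitals mark each match, on either strand, to the NF-Y box CCAAT (read as ATTGG on the other strand) or to the sterol regulatory element written loosely as TCACNCNAC.
Hmgcs1: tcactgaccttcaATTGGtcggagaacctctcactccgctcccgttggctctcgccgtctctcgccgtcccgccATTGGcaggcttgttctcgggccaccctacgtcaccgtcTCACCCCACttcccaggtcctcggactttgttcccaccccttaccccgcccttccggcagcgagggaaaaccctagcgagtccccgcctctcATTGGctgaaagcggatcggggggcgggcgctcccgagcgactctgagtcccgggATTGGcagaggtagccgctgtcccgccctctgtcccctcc
Mvd: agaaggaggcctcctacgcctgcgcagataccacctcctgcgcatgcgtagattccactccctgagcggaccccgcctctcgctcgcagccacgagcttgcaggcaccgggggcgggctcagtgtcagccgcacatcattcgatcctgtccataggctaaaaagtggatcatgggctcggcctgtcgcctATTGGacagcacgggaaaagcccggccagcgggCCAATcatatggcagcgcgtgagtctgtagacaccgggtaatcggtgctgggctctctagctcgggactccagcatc
Idi1: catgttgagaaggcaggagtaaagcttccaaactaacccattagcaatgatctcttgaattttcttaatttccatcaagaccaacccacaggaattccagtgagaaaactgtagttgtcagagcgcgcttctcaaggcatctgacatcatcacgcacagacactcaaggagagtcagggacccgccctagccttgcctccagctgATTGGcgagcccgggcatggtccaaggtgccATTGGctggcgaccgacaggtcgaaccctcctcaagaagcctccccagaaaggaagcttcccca
Cyp51: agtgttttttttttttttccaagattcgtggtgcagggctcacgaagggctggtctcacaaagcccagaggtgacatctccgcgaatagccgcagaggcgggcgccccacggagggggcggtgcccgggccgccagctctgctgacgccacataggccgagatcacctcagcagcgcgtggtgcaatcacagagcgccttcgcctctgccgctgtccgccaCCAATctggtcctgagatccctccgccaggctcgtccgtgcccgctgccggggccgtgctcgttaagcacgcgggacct
Insig1: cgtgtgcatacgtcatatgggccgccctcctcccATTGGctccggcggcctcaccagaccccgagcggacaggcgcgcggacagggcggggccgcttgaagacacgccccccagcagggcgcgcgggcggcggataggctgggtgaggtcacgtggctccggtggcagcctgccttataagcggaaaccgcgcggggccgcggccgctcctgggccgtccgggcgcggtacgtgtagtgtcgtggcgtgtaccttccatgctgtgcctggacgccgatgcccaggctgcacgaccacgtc

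Promoters in the RefSeq table matched 24 of the 31 genes; Fdps, Fdft1, Sqle, Stard4, Scd1, Scd2 and Fads1 had no entry. A CCAAT box on either strand was found in 19 of these 24 genes (79.2%), against 41.1% of all 27025 genes with a promoter in the table. The E-box CACGTG was found in 5 of 24 (20.8%), against 8.09% of all genes. The strict sterol regulatory element TCACNCCAC, which is contained in TCACNCNAC, was found in Hmgcs1 alone, or 1 of 24 (4.17%), against 1.44% of all genes, and the loose form in Hmgcs1 and Nsdhl (8.33%), against 3.15%. These are matches of letters in windows of 300 bases, several for genes with more than 1 listed start, and no binding was measured.

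Total counts ran from 30590742 to 50021142 per library. Chst7 (chrX:20058963-20099991, GRCm38), the targeted gene, was knocked down to 2.29% of the siControl mean on day 0, 2.01% on day 1 and 8.59% on day 3. Its level was 0.238, 0.611 and 0.465 CPM in siChst7 cells, against 19.7, 18.6 and 19.2 CPM in siControl cells on day 0, in CPM, counts relative to the scaled size of the library. On day 1 it was 0.950, 0.581 and 0.733 CPM in siChst7 cells, against 40.4, 37.2 and 35.3 CPM in siControl cells, and on day 3 2.96, 1.87 and 1.64 CPM in siChst7 cells, against 25.6, 23.8 and 25.9 CPM in siControl cells. The groups did not overlap on any day, and it was higher in siChst7 cells on day 3 than on days 0 and 1. Of the libraries that stood apart, replicate 1 of siChst7 on day 3 had 1.96% of its counts on the ribosomal precursor Rn45s, against 0.131% to 0.654% in the other 17 libraries, and in replicate 3 of siChst7 on day 0 the difference from siControl leaned on gene length more than in its fellow replicates. Replicate 2 of siChst7 on day 3 lay at 6.3 on the third principal component, against 24 and 29.7 for replicates 1 and 3 and -24.4 to -21.8 for siControl of that day, and the component held 4.47% of the variance. Fibroblast markers summed to between 7264 and 13006 CPM per library, of which Vim alone gave a mean of 3026 to 9277 CPM over the groups. Of 9 fibroblast markers tested, 7 were lower and 2 higher on day 1 than on day 0 in each arm. On day 3 against day 0, 5 were lower and 3 higher in siChst7 and 6 lower and 2 higher in siControl, with Dcn at a log2FC of -4.09 in siChst7 and -4.44 in siControl. Vim went up, from 3026 to 5156 CPM in siChst7 and from 3909 to 5967 CPM in siControl. With it the sum of the fibroblast markers rose, from a mean of 7457 to 9562 CPM in siChst7 and from 7680 to 10421 CPM in siControl. Thy1, at 0 in siChst7 on day 0, did not pass the filter on low counts, so its levels were not compared. Cardiomyocyte markers summed to 24.0 CPM in siChst7 and 13.1 CPM in siControl on day 0, to 164 CPM in siChst7 and 133 CPM in siControl on day 1, and to 1657 CPM in siChst7 and 1098 CPM in siControl on day 3. Of the fat-storing and cholesterol-making cell types, adipocyte markers summed to between 18.0 and 28.4 CPM on day 0, nearly all of it Fabp4. On days 1 and 3 they summed to at most 6.83 CPM. Hepatocyte markers were near 0, at most 0.386 CPM. In bulk RNA, fewer cells of a type and less RNA per cell cannot be told apart.

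Per kilobase of the deposited gene length, 4 of the 8 fatty acid genes led the 31. Acly, which makes cytosolic acetyl-CoA from citrate, averaged 60.7 CPM per kb over the 18 libraries and lay above 90.1% of the genes tested. Fasn, the fatty acid synthase, followed at 48.0 CPM per kb, the desaturase Fads2 at 41.8 and Scd2, a stearoyl-CoA desaturase, at 40.4. Among sterol enzymes Msmo1 was highest at 39.5 CPM per kb, then Fdps at 38.3 and Cyp51 at 36.5. The lowest of the 31 were Tm7sf2 at 1.92, Dhcr7 at 2.96 and Elovl6 at 4.74 CPM per kb. The span between the highest and the lowest group mean was widest for Idi1 (5.75-fold), Cyp51 (5.28-fold) and Fdps (4.11-fold), and narrowest for Ebp (1.17-fold), Srebf1 and Fads2 (1.18-fold each).

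On day 0, before doxycycline, the genes were higher with siChst7 or not called, and none was lower. Of 31 genes, 12 were higher (edgeR adjusted p below 0.05 over all genes tested), against a background of 13.9% of all genes called higher, and 0 were lower, against 13.5% of all genes. DESeq2 called 13 higher and 0 lower, against 14.5% and 13.9% of all genes. At an unadjusted p below 0.05 edgeR had 0 lower. With libraries scaled by totals alone, 16 of the 31 were higher and 0 lower, against 20.0% and 8.82% of all genes, whose median log2FC was then 0.06. The median log2 fold change (log2FC, siChst7 over siControl) was 0.13. Called genes were spread over all roles: 6 of 18 sterol enzymes, 3 of 5 control genes and 3 of 8 fatty acid genes.

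The largest rise on day 0 was in the control loop. Insig1, which retains Scap in the endoplasmic reticulum, had 34.0, 35.4 and 33.1 CPM in siChst7 cells, against 21.0, 22.5 and 24.2 CPM in siControl cells (log2FC 0.60 ± 0.08, edgeR adjusted p = 8.26e-06). Every siChst7 library lay above every siControl library. Srebf2, the SREBP2 gene, had 132, 138 and 137 CPM in siChst7 cells, against 118, 120.5 and 112 CPM in siControl cells (log2FC 0.21 ± 0.05, edgeR adjusted p = 0.00182), again with no overlap. Stard4, a carrier of cholesterol between membranes, was also higher (log2FC 0.40 ± 0.07), whereas Srebf1 (log2FC 0.01 ± 0.04) and Scap (0.08 ± 0.05) were not called.

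Among sterol enzymes the rise on day 0 lay at scattered steps of the pathway. Mvd, which forms isopentenyl pyrophosphate, had 14.6, 13.3 and 14.5 CPM in siChst7 cells, against 9.40, 9.83 and 9.38 CPM in siControl cells (log2FC 0.57 ± 0.08, edgeR adjusted p = 5.83e-06). Idi1, the isomerase of the next step, had 11.4, 12.5 and 10.7 CPM in siChst7 cells, against 8.41, 8.15 and 7.56 CPM in siControl cells (log2FC 0.52 ± 0.09, edgeR adjusted p = 2.08e-04). Acat2, a cytosolic thiolase that joins acetyl-CoA units, had 32.5, 35.0 and 31.9 CPM in siChst7 cells, against 23.4, 23.6 and 23.6 CPM in siControl cells (log2FC 0.49 ± 0.06, edgeR adjusted p = 3.82e-06). In all of these the siChst7 libraries lay above all siControl libraries. Hmgcs1, the cytosolic HMG-CoA synthase, had 46.0, 52.3 and 48.6 CPM in siChst7 cells, against 33.4, 37.4 and 35.4 CPM in siControl cells (log2FC 0.47 ± 0.06), and Dhcr7, the reductase at the last steps, had 8.53, 8.82 and 9.25 CPM in siChst7 cells, against 6.22, 6.84 and 6.09 CPM in siControl cells (log2FC 0.47 ± 0.10). Both were called and neither overlapped. Fdft1, the squalene synthase, was called at a smaller log2FC of 0.23 ± 0.07, a call that was lost without replicate 2 of siChst7 (edgeR adjusted p = 0.09) or replicate 1 of siControl (0.1). The other 12 enzymes were not called, with log2FC between -0.11 (Msmo1, the C4-methyl sterol oxidase) and 0.28 (Tm7sf2, a sterol reductase).

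Of the fatty acid genes, Scd1, Scd2 and Elovl6 were higher on day 0 and the other 5 were not called. Scd2 had 176, 171 and 175 CPM in siChst7 cells, against 128, 128 and 128 CPM in siControl cells (log2FC 0.44 ± 0.05, edgeR adjusted p = 5.09e-07). Elovl6, which elongates C16 fatty acids, had 34.1, 33.9 and 36.1 CPM in siChst7 cells, against 24.5, 26.6 and 25.7 CPM in siControl cells (log2FC 0.44 ± 0.06, edgeR adjusted p = 6.71e-06). Scd1 was higher as well, at a log2FC of 0.29 ± 0.05. The groups did not overlap in any of these genes. Fasn (log2FC 0.14 ± 0.05), the acetyl-CoA carboxylase gene Acaca (-0.02 ± 0.05), Acly (-0.02 ± 0.04) and the fatty acid desaturase genes Fads1 (0.10 ± 0.05) and Fads2 (-0.01 ± 0.05) were not called. Adipocyte markers summed to 24.6 to 28.4 CPM in siChst7 and 18.0 to 20.2 CPM in siControl on that day, with 1 of 2 tested (Fabp4) higher. Smooth muscle and myofibroblast markers averaged 565 CPM in siChst7 and 1534 CPM in siControl, with 4 of 6 lower. Endothelial markers averaged 20.5 CPM in siChst7 and 13.5 CPM in siControl on day 0, with 2 of 2 tested higher. Of 9 fibroblast markers tested 4 were higher and 1 lower, and of 8 cardiomyocyte markers 1 was higher and 1 lower. The part of any of these markers' cell types in the day 0 differences was not tested. Without replicate 3 of siChst7, the count on day 0 was 14 higher and 0 lower, against 11.7% and 12.4% of all genes.

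**Figure D1:**
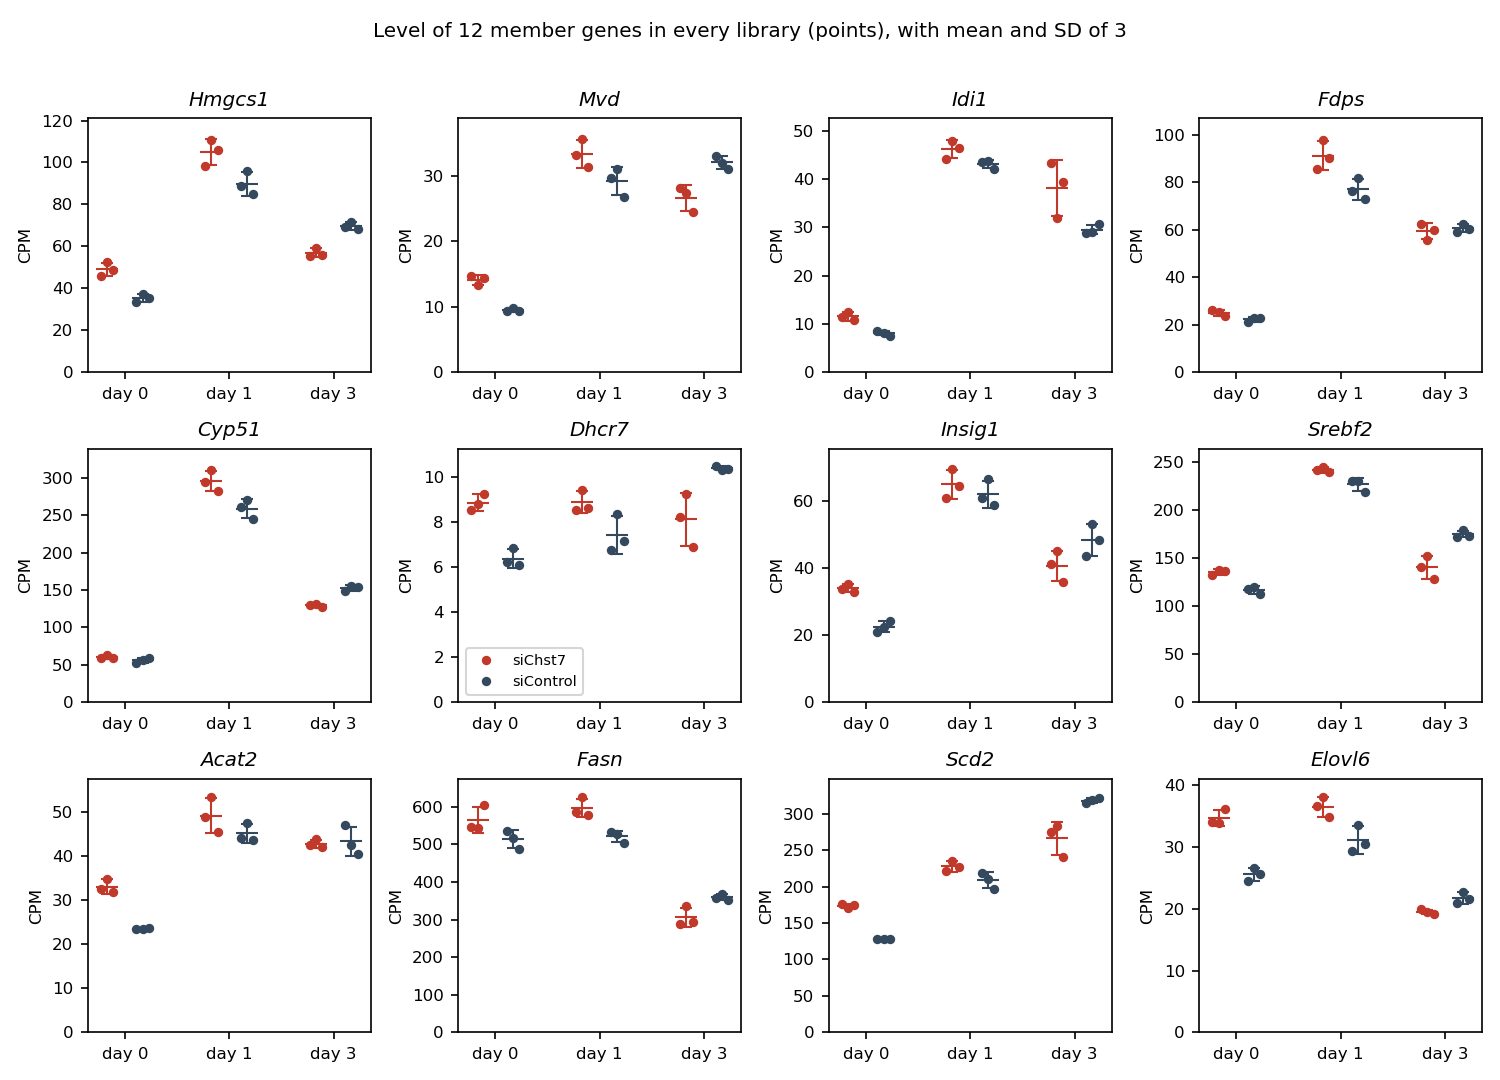
CPM on TMM-scaled library sizes (y axis) of 12 of the 31 genes in each of the 18 libraries, by day (x axis); points are libraries, bars are the mean and SD of 3, siChst7 red and left, siControl dark and right, each y axis starting at 0. Insig1, Mvd, Dhcr7, Scd2 and Elovl6 lie higher in siChst7 on day 0 and have lower means in siChst7 on day 3, while Idi1 is higher in siChst7 on both days.

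On day 1 fewer of the genes were called, and all of those called were higher with siChst7. Higher with siChst7 were 7 of 31, against 8.86% of all genes, and lower were 0 of 31, against 8.72% of all genes. DESeq2 called 8 higher and 0 lower, against 9.43% and 9.73% of all genes. At an unadjusted p below 0.05 edgeR had 1 lower, the lanosterol synthase gene Lss (-0.14 ± 0.06). The median log2FC was 0.10. The count was sensitive to single libraries: it was 4 without replicate 2 of siChst7 on day 1 and 4 without replicate 3 of siControl on day 1, and it was 11 higher and 2 lower when the day 1 groups alone were fitted. The shares of all genes moved too, to 6.54% higher and 6.66% lower without that siChst7 library. They were 6.52% and 6.78% without that siControl library, and 15.5% and 15.2% with the day 1 groups alone. None of the 5 control genes was called, with log2FC between 0.04 (Srebf1) and 0.09 (Srebf2).

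The largest difference on day 1 was in Fdft1, with 92.7, 95.8 and 87.2 CPM in siChst7 cells, against 75.9, 78.3 and 70.6 CPM in siControl cells (log2FC 0.29 ± 0.07, edgeR adjusted p = 0.00365). Its exons overlap 774 bases of the antisense gene Ctsb, and as the strand setting of the counting is not given, reads of the pair cannot be told apart. The same limit holds for Hmgcs1 (557 bases), Lss (381), Idi1 (323) and Elovl6 (34), whose exons overlap antisense transcripts. On the same strand, exons of Fdps share 1124 bases with Gm43738 and those of Tm7sf2 share 532 with Vps51. How such shared reads were counted is not given. Fdps, the farnesyl pyrophosphate synthase, had 85.7, 97.9 and 90.1 CPM in siChst7 cells, against 76.3, 81.6 and 73.0 CPM in siControl cells (log2FC 0.25 ± 0.06, edgeR adjusted p = 0.00431). Scd1 had 108, 115 and 107 CPM in siChst7 cells, against 90.3, 94.1 and 91.8 CPM in siControl cells (log2FC 0.26 ± 0.05, edgeR adjusted p = 0.00153). In none of these did the groups overlap. Elovl6 had 36.6, 38.1 and 34.8 CPM in siChst7 cells, against 29.4, 33.6 and 30.4 CPM in siControl cells (log2FC 0.23 ± 0.06, edgeR adjusted p = 0.00953), and Hmgcs1 (0.23 ± 0.06), Cyp51, the lanosterol demethylase (0.19 ± 0.05), and Fasn (0.19 ± 0.05) were called too. Without replicate 2 of siChst7 the calls of Elovl6 (edgeR adjusted p = 0.0568), Hmgcs1 (0.0642) and Fasn (0.0909) were lost. Without replicate 3 of siControl those of Hmgcs1 (0.0641), Fasn (0.0796) and Cyp51 (0.051) were lost, and without replicate 1 of siControl that of Elovl6 (0.0663). Of the genes high on day 0, Insig1 (log2FC 0.07 ± 0.08), Mvd (0.19 ± 0.07), Idi1 (0.10 ± 0.08), Acat2 (0.12 ± 0.06), Stard4 (0.07 ± 0.06) and Scd2 (0.13 ± 0.05) were not called on day 1, nor were Dhcr7 (0.26 ± 0.10) and Srebf2 (0.09 ± 0.05). Smooth muscle and myofibroblast markers averaged 1706 CPM in siChst7 and 2210 CPM in siControl on day 1, with 3 of 6 lower, and of 9 fibroblast markers 5 were higher and 1 lower. Endothelial and epithelial markers were higher in 2 of 2 tested each, of 5 and 4 listed, at low levels. Endothelial markers averaged 5.20 CPM in siChst7 and 2.81 CPM in siControl, and epithelial markers 2.32 CPM in siChst7 and 0.811 CPM in siControl. Their part in the day 1 differences was not tested.

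On day 3 most of the genes were lower with siChst7. Lower with siChst7 were 19 of 31, against 21.6% of all genes called lower, and higher were 3, against 23.1% of all genes. DESeq2 gave the same 19 and 3, against 27.4% lower and 20.4% higher of all genes. The median log2FC was -0.21. The lower genes were 8 of 18 sterol enzymes, 4 of 5 control genes and 7 of 8 fatty acid genes. In the siChst7 libraries of day 3, 23, 26 and 23 of the 31 genes lay below the siControl mean in replicates 1, 2 and 3. The same count over all genes was not made, and genes of a library share its scaling and are not replicates. The differences were small, with no called log2FC beyond -0.35 or 0.37.

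In the control loop, Srebf2 had 141, 153 and 129 CPM in siChst7 cells, against 173, 179 and 174 CPM in siControl cells on day 3 (log2FC -0.32 ± 0.05, edgeR adjusted p = 2.01e-05), with every siChst7 library below every siControl library. Srebf1 was lower at a log2FC of -0.24 ± 0.04 and Scap at -0.23 ± 0.05, also without overlap. Exons of Srebf1 overlap those of the antisense gene Rai1 by 109 bases and exons of Scap an antisense transcript by 985 bases, so both counts may hold reads of the other strand. Insig1 had 41.3, 45.1 and 36.0 CPM in siChst7 cells, against 43.8, 53.2 and 48.5 CPM in siControl cells (log2FC -0.25 ± 0.08, edgeR adjusted p = 0.0147), but here the highest siChst7 library exceeded the lowest siControl library, and the call was lost without replicate 2 of siControl (edgeR adjusted p = 0.109). Stard4 was not called (log2FC 0.01 ± 0.06).

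Of the sterol enzymes, Dhcr7 had 8.22, 9.24 and 6.89 CPM in siChst7 cells, against 10.5, 10.3 and 10.4 CPM in siControl cells (log2FC -0.35 ± 0.10, edgeR adjusted p = 0.00756), and every siChst7 library was below the siControl libraries. Hmgcs1 had 55.5, 59.3 and 55.6 CPM in siChst7 cells, against 69.0, 71.6 and 68.0 CPM in siControl cells (log2FC -0.29 ± 0.06), and Mvd had 28.2, 27.4 and 24.4 CPM in siChst7 cells, against 33.1, 31.9 and 31.1 CPM in siControl cells (log2FC -0.26 ± 0.07). Neither overlapped. Lss, the lanosterol synthase, was lower at a log2FC of -0.27 ± 0.06 and Cyp51 at -0.24 ± 0.05. The calls of Mvk, the mevalonate kinase (-0.21 ± 0.07), Sqle, the squalene epoxidase (-0.20 ± 0.06), and Hsd17b7, a ketosteroid reductase (-0.17 ± 0.06), were lost without replicate 1 of siChst7, at an edgeR adjusted p of 0.0555 for Mvk, 0.0802 for Sqle and 0.105 for Hsd17b7. They were also lost without replicate 2 of siControl for Mvk and Hsd17b7 and without replicate 3 of siControl for Mvk and Sqle, the highest adjusted p of Mvk being 0.0867. Exceptions went the other way. Idi1 had 43.4, 31.9 and 39.4 CPM in siChst7 cells, against 28.9, 29.0 and 30.7 CPM in siControl cells (log2FC 0.37 ± 0.08, edgeR adjusted p = 8.50e-04), the only gene of the 31 called higher on both days 0 and 3. Msmo1 had 88.2, 69.1 and 93.7 CPM in siChst7 cells, against 64.4, 69.5 and 68.2 CPM in siControl cells (log2FC 0.31 ± 0.08, edgeR adjusted p = 0.00345), with replicate 2 of siChst7 within the siControl range, and its call was lost without replicate 3 of siChst7 (edgeR adjusted p = 0.068). Ebp, a sterol isomerase, had 61.5, 47.6 and 66.6 CPM in siChst7 cells, against 50.1, 51.4 and 48.9 CPM in siControl cells (log2FC 0.22 ± 0.08, edgeR adjusted p = 0.0241), with replicate 2 of siChst7 below all siControl libraries, and its call was lost without replicate 1 or 3 of siChst7 or of siControl (edgeR adjusted p up to 0.48). Pmvk, the phosphomevalonate kinase (log2FC 0.06 ± 0.08), Fdps (-0.03 ± 0.06), Fdft1 (0.03 ± 0.07), Nsdhl, a sterol dehydrogenase (-0.04 ± 0.07), Sc5d, a sterol desaturase (-0.08 ± 0.07), Acat2 (-0.02 ± 0.06) and Tm7sf2 (-0.33 ± 0.18) were not called.

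Fatty acid genes were lower throughout on day 3 except Scd1. Acly had 192, 216 and 189 CPM in siChst7 cells, against 249, 244 and 243 CPM in siControl cells (log2FC -0.30 ± 0.05, edgeR adjusted p = 1.71e-05). Fasn had 289, 335 and 294 CPM in siChst7 cells, against 357, 369 and 352 CPM in siControl cells (log2FC -0.23 ± 0.05, edgeR adjusted p = 0.00172). Acaca had 63.8, 69.1 and 61.5 CPM in siChst7 cells, against 78.0, 75.4 and 76.5 CPM in siControl cells (log2FC -0.24 ± 0.05, edgeR adjusted p = 3.92e-04). All siChst7 libraries lay below all siControl libraries in these genes, which between them lead from citrate to palmitate. Scd2 had 274, 283 and 241 CPM in siChst7 cells, against 314, 319 and 321 CPM in siControl cells (log2FC -0.26 ± 0.05), and Fads1 was lower at a log2FC of -0.25 ± 0.05, both without overlap. Elovl6 (-0.16 ± 0.06) and Fads2 (-0.13 ± 0.05) were called at smaller sizes, and both calls were lost without each of several single libraries of either siRNA, at edgeR adjusted p up to 0.182 and 0.16. Scd1 (log2FC 0.05 ± 0.05) was not called. Scd1 and Scd2 are near neighbours and close paralogs, and how reads that match both were counted is not given.

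Gene length and markers of muscle cells moved with the day 3 result. Gene length and log2FC had a rank correlation across the 13802 genes of 0.052 on day 0, -0.071 on day 1 and -0.332 on day 3, and of -0.304 across the 31 genes on day 3; genes of a library share its depth and are not replicates. The median length of the 31 genes was 2985 bases, close to the 2882 bases of all genes tested, but single genes differed widely. The longest, Fasn (9938 bases) and Acaca (9032), were called lower, as were the short Mvd (1864), Mvk (1732) and Fads2 (1508). The 3 called higher were shorter than the median, Idi1 at 2867, Msmo1 at 1824 and Ebp at 1743 bases. The part of length in the split between roles was not tested. With the trend against length removed from the counts, 20 of the 31 were lower and 2 higher on day 3, against 25.9% and 18.6% of all genes under the same setting. Of the members, Fdps and Tm7sf2 gained a call of lower that way, while Ebp and Elovl6 lost theirs (edgeR adjusted p = 0.209 for Ebp and 0.175 for Elovl6). Without replicate 1 of siChst7, the library rich in Rn45s, 14 were lower and 2 higher, against 17.8% and 18.5% of all genes. With the day 3 groups alone in the fit 14 were lower and 2 higher, against 16.6% and 18.9% of all genes. Without replicate 2 of siChst7, 18 were lower and 3 higher, against 25.0% and 25.9% of all genes. The call of Elovl6 was then lost (edgeR adjusted p = 0.0737), and the log2FC was 0.49 for Idi1, 0.43 for Msmo1 and 0.35 for Ebp. Cardiomyocyte markers summed to between 1354 and 1863 CPM in siChst7 and between 1057 and 1119 CPM in siControl on day 3, with Tnnt2 the most abundant, and 6 of 8 tested were higher. Smooth muscle and myofibroblast markers summed to between 3382 and 4154 CPM in siChst7 and between 3031 and 3145 CPM in siControl on that day, with 4 of 6 higher. The part of either in the lower levels of the 31 genes was not tested.

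**Figure D2:**
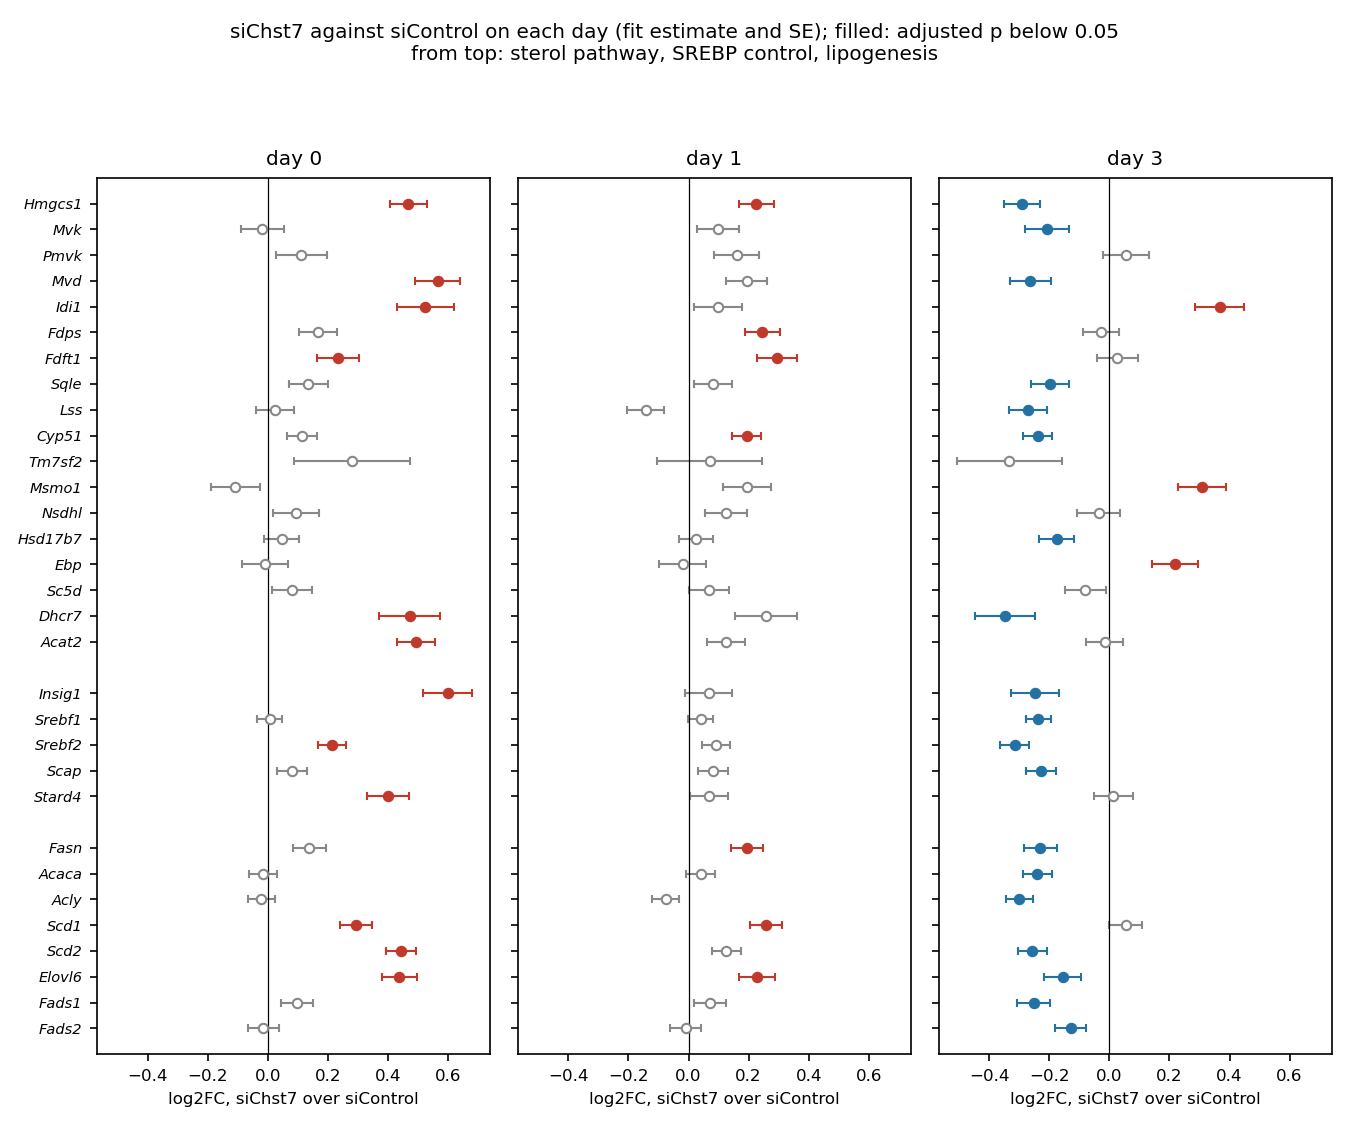
Log2FC of siChst7 over siControl (x axis) for each of the 31 genes on days 0, 1 and 3, as estimate and SE of the fit to 18 libraries; filled points have an edgeR adjusted p below 0.05, red higher and blue lower. Called genes number 12 higher and 0 lower on day 0, 7 and 0 on day 1, and 3 and 19 on day 3.

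Whether the siRNA difference itself changed between days was tested by interaction terms, the difference of log2FC between 2 days. Between days 0 and 3 the siChst7 difference fell in 20 of 31 genes, against a background of 18.1% of all genes. It increased in 1, against 20.7% of all genes. DESeq2 gave 23 lower and 1 higher, against 22.6% and 18.9% of all genes. With libraries scaled by totals alone, the term was lower in 26 and higher in 1 of the 31, against 27.4% and 15.2% of all genes, whose median moved from 0.01 to -0.10. The median term of the 31 genes was -0.30. All 5 control genes, 7 of 8 fatty acid genes and 8 of 18 sterol enzymes were among the 20. The term was largest for Insig1 (-0.85 ± 0.11, edgeR adjusted p = 7.72e-06), Mvd (-0.83 ± 0.10, edgeR adjusted p = 2.51e-06), Dhcr7 (-0.82 ± 0.14, edgeR adjusted p = 1.16e-04) and Hmgcs1 (-0.76 ± 0.09, edgeR adjusted p = 7.76e-07). For Msmo1 it was positive, at 0.42 ± 0.11 (edgeR adjusted p = 0.00636). Genes called higher on day 0 and lower on day 3 numbered 7, namely Hmgcs1, Mvd, Dhcr7, Insig1, Srebf2, Scd2 and Elovl6, a choice that itself all but fixes the sign and call of the term. The share of all genes with this pattern was not computed. For Idi1, high on both days, it was -0.16 ± 0.12 and not called.

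At the median of the 31 genes, most of that shift lay between days 1 and 3. The day 3 minus day 1 term was lower in 19 of 31 genes and higher in 0, against 13.1% and 15.3% of all genes, with a median of -0.28. DESeq2 gave 20 lower and 0 higher, against 17.3% and 14.2% of all genes. At an unadjusted p below 0.05 edgeR had 2 higher, Idi1 and Ebp. Without replicate 2 of siChst7 on day 3, 21 were lower and 3 were higher, against 18.8% and 21.0% of all genes. Those higher were Idi1 (0.39), Ebp (0.37) and Msmo1 (0.23). The 4 largest were Dhcr7 (-0.60 ± 0.14), Hmgcs1 (-0.52 ± 0.08), Mvd (-0.46 ± 0.10) and Cyp51 (-0.43 ± 0.07). Between days 0 and 1 the term was lower in 6 and higher in 0, against 5.5% and 6.2% of all genes, with a median of -0.03. DESeq2 gave 7 lower and 0 higher, against 6.62% and 6.88% of all genes. At an unadjusted p below 0.05 edgeR had 1 higher, Msmo1. The 6 were Insig1 (-0.53 ± 0.11), Idi1 (-0.43 ± 0.12), Mvd (-0.37 ± 0.10), Acat2 (-0.37 ± 0.09), Stard4 (-0.33 ± 0.09) and Scd2 (-0.32 ± 0.07), all high on day 0. By library totals alone 8 were lower and 0 higher, against 8.74% and 3.78% of all genes. The count was 3 without replicate 2 of siControl on day 1. The terms of Idi1 (adjusted p up to 0.0836 over the fits that leave out 1 library), Mvd (up to 0.0613) and Stard4 (up to 0.0697) were those lost in this way. The terms share groups with each other and with the comparisons of single days, so they are not independent of them. Pmvk, Tm7sf2, Nsdhl and Sc5d were called on no day and in no interaction term; the wide error of Tm7sf2, the lowest of the 31, left a day 3 minus day 0 term of -0.61 ± 0.26.

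**Figure D3:**
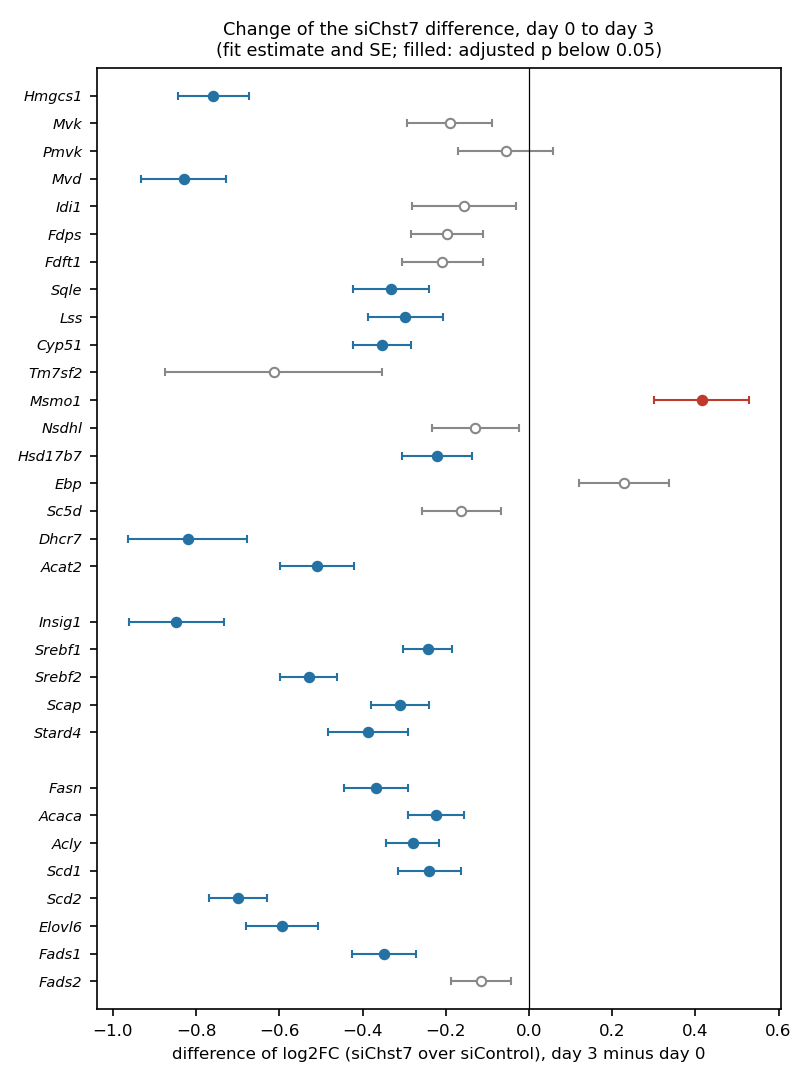
Change of the siChst7 over siControl log2FC between days 0 and 3 (x axis, day 3 minus day 0) for each of the 31 genes, as estimate and SE; filled points have an edgeR adjusted p below 0.05. Blue points, 20 genes, lie below 0 and reach -0.85 for Insig1; Msmo1, in red at 0.42, is the 1 called above 0.

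In both arms most of the genes rose by day 1. In siChst7 cells 23 of 31 genes were higher and 1 lower on day 1 than on day 0, against 29.5% and 30.5% of all genes. In siControl cells the counts were also 23 and 1, against 29.5% and 30.8%. Median log2FC were 0.74 in siChst7 and 0.87 in siControl. Sterol enzymes carried the rise, with 16 of 18 higher in each arm. Ebp and Dhcr7 were the exceptions in both arms. Gene length and log2FC of day 1 against day 0 had a rank correlation across the 31 genes of -0.341 in siChst7 and -0.322 in siControl. Across all genes tested it was -0.043 in siChst7 and 0.01 in siControl. The part of length in the lead of the sterol enzymes was not tested.

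Idi1 was at 44.2, 47.9 and 46.6 CPM on day 1 in siChst7 cells, against 11.4, 12.5 and 10.7 CPM on day 0 (log2FC 2.00 ± 0.09, edgeR adjusted p = 4.13e-15). In siControl cells it was at 43.5, 43.8 and 42.1 CPM on day 1, against 8.41, 8.15 and 7.56 CPM on day 0 (log2FC 2.42 ± 0.09, edgeR adjusted p = 3.31e-16). No library of day 1 came near the day 0 range. Cyp51 was at 294, 310.3 and 283 CPM on day 1 in siChst7 cells, against 59.2, 63.5 and 59.1 CPM on day 0 (log2FC 2.29 ± 0.05). In siControl cells it was at 261, 270.3 and 245 CPM, against 52.3, 56.8 and 58.8 CPM (log2FC 2.21 ± 0.05). Cyp51 shares 166 exon bases with the antisense gene Akap9. The log2FC of Fdps was 1.87 ± 0.06 in siChst7 and 1.79 ± 0.06 in siControl, that of Nsdhl 1.52 ± 0.07 in siChst7 and 1.49 ± 0.07 in siControl, and that of Mvd 1.24 ± 0.07 in siChst7 and 1.61 ± 0.07 in siControl. Nsdhl, not called between siRNAs on any day, was at 52.8, 53.0 and 51.0 CPM in siChst7 on day 1, against 18.4, 20.2 and 15.9 CPM on day 0. Pmvk rose by a log2FC of 1.46 ± 0.08 in siChst7 and 1.41 ± 0.08 in siControl. Of the control genes Insig1, Srebf2 and Stard4 rose in both arms and Scap was lower, at a log2FC of -0.20 in siChst7 and -0.20 in siControl. Fasn, Acaca, Acly and Fads1 were not called on day 1 in either arm, and Scd1, Scd2 and Fads2 rose in both. Elovl6 was called higher in siControl (0.28 ± 0.06) and not in siChst7 (0.07 ± 0.06), and Srebf1 in siChst7 (0.10 ± 0.04) and not in siControl (0.06 ± 0.04).

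Between days 1 and 3 most of the genes fell. In siChst7 cells 26 of 31 were lower and 1 higher on day 3 than on day 1, against 33.5% and 31.7% of all genes, with a median log2FC of -0.50. In siControl cells 20 were lower and 4 higher, against 32.3% and 22.8%, with a median of -0.31. These shares of all genes depend on the scaling. By library totals alone, 22 were lower and 2 higher in siChst7, against 25.2% and 39.2% of all genes, and 17 were lower and 5 higher in siControl, against 18.8% and 35.0%. With upper quartile scaling, 20 were lower and 5 higher in siControl, against 22.8% and 30.6%. The difference between the arms is the day 3 minus day 1 interaction term given above. Cyp51 had the largest drop, to 129, 131 and 128 CPM in siChst7 (log2FC -1.19 ± 0.05, edgeR adjusted p = 7.87e-15) and to 149, 156 and 154 CPM in siControl (log2FC -0.76 ± 0.05, edgeR adjusted p = 1.18e-11). Fasn was lower by a log2FC of -0.96 ± 0.06 in siChst7 and -0.54 ± 0.05 in siControl, Acaca by -0.91 ± 0.05 in siChst7 and -0.63 ± 0.05 in siControl, and Elovl6 by -0.90 ± 0.06 in siChst7 and -0.52 ± 0.06 in siControl. All of these pairs of days were free of overlap. Scd2 alone was called higher in both arms, at 0.22 ± 0.05 in siChst7 and 0.61 ± 0.05 in siControl. Dhcr7 rose late, by 0.48 ± 0.10, in siControl cells, while in siChst7 cells it was at -0.12 ± 0.10 and not called.

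On day 3 most sterol enzymes were still above day 0 and most fatty acid genes below it. In siChst7 cells 17 of 31 genes were higher and 8 lower on day 3 than on day 0, against 37.9% and 37.8% of all genes. In siControl cells 21 were higher and 6 lower, against 33.9% and 39.5%; with libraries scaled by totals alone, which moved the median of all genes from -0.05 to 0.10, the split was 24 and 2, against 42.1% and 30.7% of all genes, and the lower calls of Acly, Elovl6, Fads1 and Ebp in siControl were lost. Median log2FC were 0.22 in siChst7 and 0.70 in siControl. Of the 18 sterol enzymes, 14 were higher in siChst7 and 15 in siControl. Gene length and log2FC of day 3 against day 0 had a rank correlation across the 31 genes of -0.478 in siChst7 and -0.383 in siControl. Across all genes tested it was -0.17 in siChst7 and -0.007 in siControl. The part of length in the split between sterol enzymes and fatty acid genes was not tested. Idi1 was highest over its day 0, at a log2FC of 1.72 ± 0.09 in siChst7 and 1.88 ± 0.09 in siControl. Fdps was at 1.25 ± 0.06 in siChst7 and 1.45 ± 0.06 in siControl, and Cyp51 at 1.10 ± 0.05 in siChst7 and 1.45 ± 0.05 in siControl. Pmvk was at 1.18 ± 0.08 in siChst7 and 1.24 ± 0.08 in siControl, and Mvd at 0.92 ± 0.07 in siChst7 and 1.75 ± 0.07 in siControl. Mvd in siControl cells was at 33.1, 31.9 and 31.1 CPM on day 3, against 9.40, 9.83 and 9.38 CPM on day 0. Srebf2 was not called in siChst7 (log2FC 0.05 ± 0.05) and was higher in siControl (0.58 ± 0.05). Insig1 was at 0.26 ± 0.08 in siChst7 and 1.11 ± 0.08 in siControl, both called.

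The fatty acid genes parted by day 3. Acaca was lower than on day 0 by a log2FC of -0.95 ± 0.05 in siChst7 and -0.72 ± 0.05 in siControl, Fasn by -0.88 ± 0.06 in siChst7 and -0.51 ± 0.05 in siControl, and Acly by -0.52 ± 0.05 in siChst7 and -0.24 ± 0.04 in siControl. Elovl6 was at -0.83 ± 0.06 in siChst7 and -0.23 ± 0.06 in siControl, and Fads1 at -0.51 ± 0.05 in siChst7 and -0.16 ± 0.05 in siControl. Scd2 went the opposite way, at 274, 283 and 241 CPM on day 3 in siChst7 cells, against 176, 171 and 175 CPM on day 0 (log2FC 0.61 ± 0.05). In siControl cells Scd2 was at 314, 319 and 321 CPM on day 3, against 128, 128 and 128 CPM on day 0 (log2FC 1.31 ± 0.05). Its close paralog Scd1 was at -0.12 ± 0.05 in siChst7, a call lost without replicate 1 or 3 of either day (edgeR adjusted p up to 0.458), and 0.12 ± 0.05 in siControl, not called. Of the 22 genes that rose on day 1 in both arms, the share of the log2 rise left on day 3 had a median of 52.9% in siChst7 and 76.5% in siControl, and it was smaller in siChst7 for 20 of the 22; both shares use day 0 and day 1 values already given and are a description. The same shares were not computed over all genes.

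**Figure D4:**
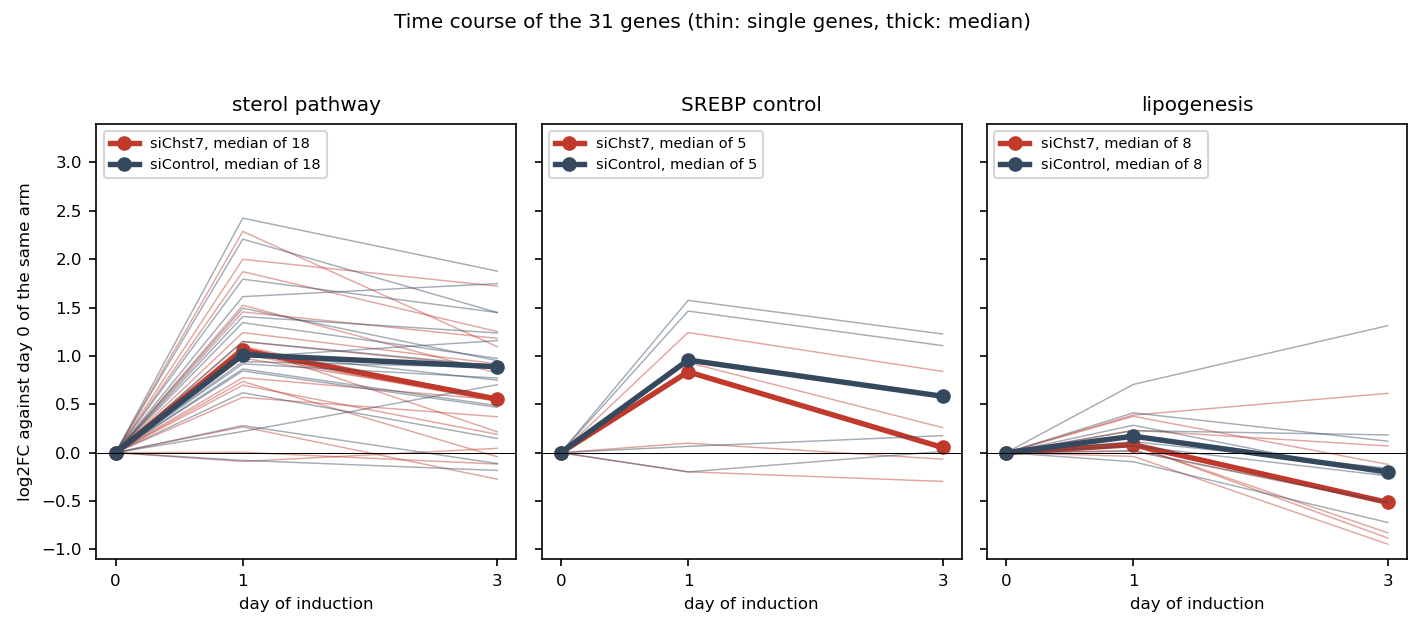
Log2FC against day 0 of the same siRNA arm (y axis) on days 0, 1 and 3 (x axis) for the 18 sterol, 5 control and 8 fatty acid genes; thin lines are genes, thick lines the median, siChst7 red and siControl dark. The medians of both arms rise together to day 1 for sterol enzymes and part by day 3, where siChst7 lies lower in each panel.

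Other genes of the same pathways, from 4 lists of non-members, were called in both directions. Of all genes, 13.9% were called higher and 13.5% lower on day 0, and several of the counts below lie near those shares. On day 0, of 8 other regulators of SREBP processing 2 were higher and 1 lower, the higher ones being Mbtps1, a protease that cuts SREBPs (0.19), and Syvn1, a ubiquitin ligase (0.22). Of 10 genes of the isoprenoid branch, which draws farnesyl pyrophosphate away from sterols, 0 were higher (1 at an unadjusted p below 0.05, 0 by DESeq2) and 2 lower (Fntb, -0.24, and Coq2, -0.16). Of 18 tested genes of sterol transport, esterification and efflux, 6 were higher and 1 lower, led by Mylip, a ligase that removes lipoprotein receptors (1.02), and the efflux pump gene Abca1 (0.50), with the sterol-binding protein gene Osbp lower (-0.29). Of 26 further fatty acid and glycerolipid genes, 6 were higher and 4 lower, among them Lpin1, a phosphatidate phosphatase (0.83), the carboxylase gene Acacb (0.57), Fads3 (-0.34) and Mid1ip1 (-0.34). The median log2FC was 0.05 for the regulators, -0.05 for the isoprenoid branch, 0.12 for transport and -0.03 for the further fatty acid genes.

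On day 1, 0 of the first list and 0 of the isoprenoid list were called by edgeR, and 0 by DESeq2. At an unadjusted p below 0.05 edgeR had 2 higher and 0 lower in the first and 1 and 1 in the other. Of all genes, 8.86% were called higher and 8.72% lower on that day. Of the transport genes 4 were higher and 6 lower, with Mylip at 0.61, the lipoprotein receptor gene Scarb1 at 0.35, Abca1 at -0.42 and Osbp at -0.41. Of the further fatty acid genes 2 were higher and 4 lower, with Acacb at 1.16, Acsl4 at 0.19, Acsl1, an acyl-CoA synthetase gene, at -0.48 and Slc25a1, the citrate carrier gene, at -0.21.

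On day 3 the isoprenoid list had no lower call and the transport list mostly lower ones. Of all genes, 23.1% were called higher and 21.6% lower. Isoprenoid genes were higher in 4 of 10 cases and lower in 0 (0 at an unadjusted p below 0.05, 0 by DESeq2), led by Pdss1 (0.65) and Ggps1 (0.47), which extend isoprenoid chains. The other SREBP regulators were higher in 3 of 8 and lower in 1 (Rnf139, 0.33; Insig2, 0.32; Mbtps1, -0.19). Transport genes were higher in 2 and lower in 9 of 18, with Ch25h, a cholesterol hydroxylase gene, at 0.53, Tmem97 at 0.45, Osbp at -0.43 and Abca1 at -0.37. Further fatty acid genes were higher in 3 and lower in 11 of 26, with Hacd1 at 0.75, Hacd2 at 0.24, Acsl1 at -0.59 and the lipase gene Pnpla2 at -0.43. The median log2FC on day 3 was 0.04 for the regulators, 0.06 for the isoprenoid branch, -0.15 for transport and -0.07 for the further fatty acid genes, beside -0.21 for the 31 genes. No test between lists was made.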

How the data were processed

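The deposited table holds whole-number read counts per gene for 18 libraries, and was deposited without normalization. The submitters' processing notes name HISAT2, Subread, featureCounts and DESeq2 and the build mm10. The sources used here do not give versions, annotation release, strand setting or the handling of reads with several matches. Sample descriptions name the library, which tied each column to a sample. The table held 0 genes with mitochondrial symbols, and 11 symbols had the form of a date (Mar1 and the like); these rows stayed in the totals and in the fit.

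Counts were tested with edgeR 4.0.16 (R 4.3.3): filterByExpr left 13802 genes, libraries were scaled by TMM, and 1 quasi-likelihood fit held all 18 libraries in 6 groups, with 12 residual degrees of freedom. A gene was called at a Benjamini-Hochberg adjusted p below 0.05 over all genes tested, two-sided. The ± after a log2FC is a standard error derived from the F statistic. CPM use TMM-scaled totals. At these depths every one of the 31 genes had reads in every library. DESeq2 1.42.0, other scalings and filters, a fit per comparison, a replicate block, removal of the length trend and leaving out each library were the alternatives.

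The members, the other gene lists, the markers and the motifs were chosen with earlier results of these data known. All 31 members are named; values in every library are given for Chst7 and for up to 4 called members with the largest log2FC per comparison or interaction term, with some others of the same group beside them, and up to 2 called genes each way per other list are named, except 1 that is not reported here. Of the other lists, 1 regulator of SREBP processing was not in the table, and transport and fatty acid genes below the filter were not tested. Coordinates and promoters are from RefSeq on GRCm38.p6 and exon overlaps from GENCODE M21, 1-based.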

Additional observations from a re-analysis of the deposited data

Results flagged for a closer look

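In 21 of the 31 genes the siChst7 difference on day 3 departed from that on day 0 by a called interaction term (log2 scale, day 3 minus day 0). The terms were Insig1 -0.85, Mvd -0.83, Dhcr7 -0.82, Hmgcs1 -0.76, Scd2 -0.70, Elovl6 -0.59, Srebf2 -0.53, Acat2 -0.51, Stard4 -0.39, Fasn -0.37, Fads1 -0.35, Cyp51 -0.35, Sqle -0.33, Scap -0.31, Lss -0.30, Acly -0.28, Srebf1 -0.24, Scd1 -0.24, Acaca -0.22, Hsd17b7 -0.22 and, the other way, Msmo1 0.42.

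Between days 1 and 3 the term was called in 19 genes, all negative. These were Dhcr7 -0.60, Hmgcs1 -0.52, Mvd -0.46, Cyp51 -0.43, Fasn -0.42, Srebf2 -0.41, Elovl6 -0.38, Scd2 -0.38, Insig1 -0.32, Fads1 -0.32, Mvk -0.31, Scap -0.31, Sqle -0.28, Srebf1 -0.28, Acaca -0.28, Fdps -0.27, Fdft1 -0.27, Acly -0.22 and Scd1 -0.20. Between days 0 and 1 it was called in 6, namely Insig1 -0.53, Idi1 -0.43, Acat2 -0.37, Mvd -0.37, Stard4 -0.33 and Scd2 -0.32.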

How the results depend on the processing

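Over all settings 6138 values of single genes were compared with the reported ones: 5821 kept direction and side of the threshold, 169 lost their call, 148 gained one and 0 turned a call to the opposite direction. A call changed under at least 1 setting in 86 of the 372 pairs of gene and comparison. The count on day 1 was the least stable: 7 genes as reported, 13 with the day 1 groups alone in the fit, 4 without replicate 2 of siChst7 and 4 without replicate 3 of siControl. The shares of all genes called moved too. They were 8.86% higher and 8.72% lower as reported, and 15.5% and 15.2% with the day 1 groups alone. Without replicate 2 of siChst7 they were 6.54% and 6.66%, and without replicate 3 of siControl 6.52% and 6.78%. The day 1 minus day 0 interaction count of 6 was 3 without replicate 2 of siControl on day 1. The cause was not tested. Leaving out 1 library at a time changed the counts of called genes, given here for both directions together. For siChst7 against siControl they were 11 to 14 on day 0, 4 to 9 on day 1 and 16 to 21 on day 3. Of all genes, 10.6% to 11.7% were then higher and 10.4% to 12.4% lower on day 0. On day 1, 6.28% to 6.97% were higher and 6.44% to 6.78% lower. On day 3, 15.7% to 25.9% were higher and 17.8% to 25.0% lower. The interaction counts were 3 to 7 for day 1 minus day 0, 13 to 24 for day 3 minus day 1 and 20 to 25 for day 3 minus day 0. Of all genes, 4.70% to 6.05% were higher and 3.98% to 4.92% lower for day 1 minus day 0. For day 3 minus day 1, 10.4% to 21.0% were higher and 9.87% to 18.8% lower. For day 3 minus day 0, 15.8% to 24.3% were higher and 15.9% to 22.1% lower. For day 1 against day 0 the counts were 23 to 24 in siChst7 (all genes 26.6% to 27.4% higher, 27.6% to 28.6% lower) and 24 to 25 in siControl (26.9% to 27.2%, 28.2% to 28.8%). For day 3 against day 1 they were 26 to 29 in siChst7 (28.6% to 32.9%, 30.0% to 33.2%) and 23 to 24 in siControl (20.2% to 21.0%, 29.1% to 29.7%). For day 3 against day 0 they were 23 to 26 in siChst7 (35.6% to 38.5%, 35.2% to 36.9%) and 26 to 27 in siControl (31.5% to 32.0%, 37.1% to 37.8%). Scaling by library totals alone moved the median log2FC of all genes by over 0.1 in both arms for day 3 against day 1, in siControl for day 3 against day 0, and in the day 3 minus day 0 interaction, which then had 26 of 31 genes lower and 1 higher, against 27.4% and 15.2% of all genes. With the length trend removed, the day 3 minus day 1 interaction had 19 lower and 0 higher, against 17.2% and 12.4% of all genes. Replicate numbers did not pair the samples (correlations of same-numbered deviations from -0.066 to 0.061). With the replicate number as a block, day 0 had 12 higher and 0 lower, against 13.5% and 13.0% of all genes. Day 1 had 8 and 1, against 8.43% and 8.26%, and day 3 had 3 and 19, against 22.5% and 21.2%. The interaction counts with that block, both directions together, were 7, 17 and 21. Of all genes, 5.79% were then higher and 5.10% lower for day 1 minus day 0. The shares were 14.5% and 12.4% for day 3 minus day 1, and 20.0% and 17.7% for day 3 minus day 0. Depth was not limiting for most of the 31 genes, and counting error was widest for Tm7sf2 and Dhcr7, the lowest. P-values reflect the spread between replicates of 1 cell line.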

Other observations

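The other lipid lists are given here with the share of all genes called on day 1 against day 0, which was 29.5% higher and 30.5% lower in siChst7 and 29.5% higher and 30.8% lower in siControl. On day 1 against day 0, regulators of SREBP processing outside the 31 were higher in 1 and lower in 5 of 8 cases in siChst7 cells and higher in 2 and lower in 5 in siControl cells. Mbtps2, another SREBP protease, was at a log2FC of -0.79 in siChst7 and -0.61 in siControl. Genes of the isoprenoid branch were higher in 2 and lower in 4 of 10 in siChst7 and higher in 1 and lower in 4 in siControl. Ggps1, which makes geranylgeranyl pyrophosphate, was at 0.27 in siChst7 and 0.44 in siControl, and Coq2, of ubiquinone synthesis, at -0.39 in siChst7 and -0.56 in siControl.

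On day 3 against day 0, transport genes were higher in 6 and lower in 8 of 18 in siChst7 and higher in 8 and lower in 6 in siControl. Further fatty acid genes were higher in 10 and lower in 13 of 26 in siChst7 and higher in 12 and lower in 11 in siControl. Of all genes, 37.9% were higher and 37.8% lower in siChst7 and 33.9% higher and 39.5% lower in siControl. Lpin1 was at 1.84 in siChst7 and 2.92 in siControl, Acss2, an acetyl-CoA synthetase gene, at 1.52 in siChst7 and 1.72 in siControl, and Elovl7 at 1.95 in siChst7 and 1.65 in siControl. The lipoprotein receptor gene Vldlr was at 1.78 in siChst7 and 2.25 in siControl, its relative Lrp8 at -2.27 in siChst7 and -2.06 in siControl, and Soat1, which esterifies cholesterol, at -1.34 in siChst7 and -1.21 in siControl. These genes were called in both arms; Acss2 in siChst7 and Elovl7 in siControl fall outside the rule for named genes and were chosen after their values were seen.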
